A study of Mus musculus with 20 samples.

Results

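A set of 10 immediate early genes was followed through the development of the mouse habenula: Fos, Fosb, Jun, Junb, Egr1, Ier2, Nr4a1, Arc, Atf3 and Dusp1. The genes were taken by symbol from the deposited tables of total, spliced and unspliced transcripts. All 10 had a row, among 37994 genes in the tables of the developmental series and 36104 in those of a separate E18 set. Single cells had been placed in 384-well plates and sequenced with Cel-seq2, which primes at the poly(A) tail and tags each transcript with a unique molecular identifier (UMI) of 6 bases. The series came from the Brn3a-tauLacZ line, whose name refers to a tau-lacZ reporter at Brn3a (Pou4f1), with 1 plate at E12, 2 at E11, 2 each at E13, E15 and E18, and 2 each at P4, at P7 and from adults. The E18 set came from C57BL/6 mice, with 2 plates from the left side, 2 from the right side and 1 labelled as left and right together. That last plate, called here the plate of both sides, is titled E1 while its other labels say E18. The sources used here do not give the sort gate, the genotype at the reporter, the sex, or whether 2 plates of a stage came from separate animals. The p-values therefore measure the spread between plates, which may be technical.

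Immediate early genes are transcribed within minutes of a stimulus without new protein synthesis, because their regulators are already bound or present in the cell. In neurons, calcium entry and growth factor signalling reach them through kinases that act on CREB, serum response factor and its partners. Their transcripts are short-lived, and cell dissociation, stress and injury also induce them in neurons, glia and vascular cells. The habenula relays signals from the forebrain to midbrain monoamine and interpeduncular targets, and Fos is a widely used mark of recent activity in it.

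Start-site sequences are shown for 4 members that share a sequence element: Fos, Fosb and Nr4a1, which rose through the series, and Dusp1, which was not called. Junb and Atf3 also hold the element and rose, and their windows are not printed. The table of promoters held 7 of the 10 members (Fos, Fosb, Jun, Junb, Nr4a1, Atf3 and Dusp1). Each line gives the 250 bases before the RefSeq start site, 5′ to 3′ on the gene's strand, in build GRCm38.p6. Capitals mark TGACG or its reverse complement CGTCA, the core of the cAMP response element to which CREB binds, also where they overlap in the full TGACGTCA element.
Fos (chr12:85473640-85473889, plus strand): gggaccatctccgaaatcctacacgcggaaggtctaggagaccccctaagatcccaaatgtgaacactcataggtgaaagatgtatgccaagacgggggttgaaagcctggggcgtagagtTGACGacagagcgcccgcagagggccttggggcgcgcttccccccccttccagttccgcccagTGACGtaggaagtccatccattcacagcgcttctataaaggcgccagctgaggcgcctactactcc
Fosb (chr7:19310046-19310295, minus strand): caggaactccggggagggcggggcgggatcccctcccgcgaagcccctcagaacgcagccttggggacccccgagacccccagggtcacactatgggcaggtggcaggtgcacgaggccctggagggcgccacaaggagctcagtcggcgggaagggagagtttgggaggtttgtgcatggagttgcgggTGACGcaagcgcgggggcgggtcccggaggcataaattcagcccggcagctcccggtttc
Nr4a1 (chr15:101266596-101266845, plus strand): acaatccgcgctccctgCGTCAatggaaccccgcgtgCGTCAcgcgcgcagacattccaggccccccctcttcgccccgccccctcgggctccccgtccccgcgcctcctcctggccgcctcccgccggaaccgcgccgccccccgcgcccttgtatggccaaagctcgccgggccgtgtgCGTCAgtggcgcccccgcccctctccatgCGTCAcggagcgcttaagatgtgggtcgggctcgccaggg
Dusp1 (chr17:26508473-26508722, minus strand): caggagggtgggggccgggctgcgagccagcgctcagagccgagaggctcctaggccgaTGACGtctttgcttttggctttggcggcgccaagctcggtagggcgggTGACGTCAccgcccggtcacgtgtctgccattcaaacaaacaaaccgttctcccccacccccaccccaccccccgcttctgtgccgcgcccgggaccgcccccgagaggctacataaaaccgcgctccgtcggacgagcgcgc
TGACG, searched on both strands, was found in 6 of the 7 members and in 17.8% of 32851 promoter windows of the same length. Nr4a1 held 4 copies, Dusp1 3 and Fos 2. The full TGACGTCA was found in Dusp1 alone, 143 bases before its start, and in 1.55% of all windows. The AP-1 element TGANTCA, bound by Fos and Jun proteins, and the CArG box, bound by serum response factor, were found in 0 of the 7, against 6.75% and 1.47% of all windows. These are matches of letters within 250 bases, not binding sites. Other variants of these elements, elements further upstream, and the promoters of Egr1, Ier2 and Arc were not searched. The RefSeq starts of Nr4a1, Atf3 and Dusp1 lie inside longer GENCODE gene models.

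A well was kept with at least 1000 counts, at least 500 genes and at most 20% mitochondrial counts, which left 3729 of 5756 wells in the series and 1082 of 1920 in the E18 set. Levels are counts per 1000000 (CPM) of the summed kept wells of a plate. Fewer expressing cells and less RNA per cell cannot be told apart in such sums. Plates held 54 to 345 kept wells and 758697 to 7760372 counts. Adult plate 1 stood apart, with 56 kept wells and a median of 11.9% mitochondrial counts, against 4.10% to 6.56% on the other plates. The share of kept wells with a count of Pou4f1, the transcription factor of habenula neurons, was 71.2% to 92.2% on 15 plates and lower on E18 plate 1 (28.1%), adult plate 1 (37.5%), the plate of both sides (46.2%), E13 plate 2 (51.1%) and adult plate 2 (52.6%).

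Fos and Fosb encode Fos-family subunits of the AP-1 transcription factor, which pair with Jun proteins. The E11 plates held Fos at 44.1 and 50.7 CPM, the E12 plate at 33.5, the E13 plates at 18.2 and 10.6, and the E15 plates at 13.0 and 150. The E18 plates held 77.5 and 409 CPM, the P4 plates 403 and 353, the P7 plates 395 and 559, and the adult plates 404 and 638. All 6 plates from P4 onward and E18 plate 2 lay above the other 8 plates. That split was read from the values, and the share of all genes with such a split was not counted. The plates of E15 and of E18 differed several-fold within a stage. Fosb ran from 3.19 CPM (E13 plate 2) to 309 (adult plate 1), and its E18 plates held 9.18 and 254 CPM. Over the 8 stages in order, Fos rose by 0.64 ± 0.13 (SE) on the log2 scale per stage step and Fosb by 0.58 ± 0.14 (15 plates; edgeR quasi-likelihood test, adjusted p 0.00149 and 0.00499). Between the E18 plates, the share of wells with Pou4f1 (28.1% and 85.5%) and the summed progenitor markers (2283 and 157 CPM) also differed, and their part in the members' levels was not tested.

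**Figure D1:**
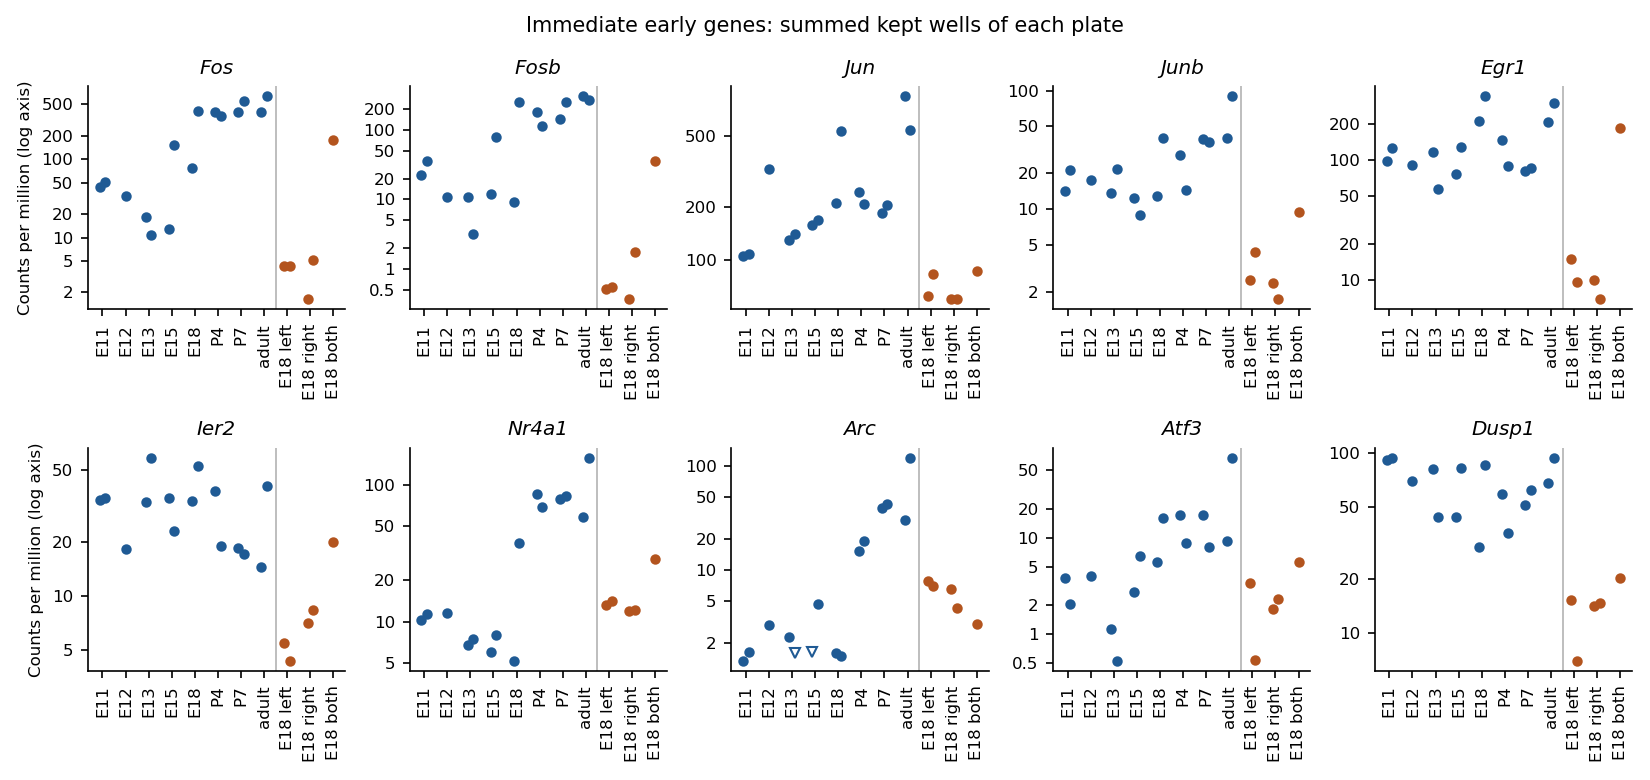
Level of each of the 10 genes on each plate, in CPM on a log axis, by stage of the series (blue) and by group of the E18 set (orange); open triangles mark Arc at 0 on E13 plate 2 and E15 plate 1, drawn at the limit of 3 counts. Fos, Fosb, Nr4a1 and Arc are high from P4 onward. The 4 one-sided E18 plates lie below every other plate for Fos, Fosb, Jun, Junb, Egr1, Ier2 and Dusp1. How many of all genes lie lowest on those plates was not counted, and set and strain differ from the series.

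Arc encodes a synaptic protein that regulates the removal of glutamate receptors, and its transcript marks recently active excitatory neurons. It had 8 or fewer counts on 7 of the 9 series plates up to E18, including 0 on E13 plate 2 and E15 plate 1, whose upper limits (3 counts) are 1.59 and 1.63 CPM. The P4 plates held Arc at 15.1 and 19.2 CPM, the P7 plates at 39.5 and 42.6, and the adult plates at 30.3 and 119. No series plate up to E18 exceeded 4.75 CPM, so the earlier and later series plates did not overlap. How many of all genes part at the same point was not counted. Its slope of 0.88 ± 0.13 per stage step was the largest of the 10 (edgeR, adjusted p 0.000157).

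Nr4a1, an orphan nuclear receptor that calcium signalling induces, was at 5.19 to 11.6 CPM on the first 8 plates in stage order, E18 plate 1 included, and at 37.7 on E18 plate 2. The P4 plates held 85.1 and 69.1 CPM, the P7 plates 78.9 and 82.9, and the adult plates 58.0 and 158. Nr4a1 rose by 0.57 ± 0.10 per stage step (edgeR, adjusted p 0.000551). As with Arc, every series plate from P4 onward lay above every earlier series plate. The share of all genes that part in this way was not counted. From E18 to P4 alone, 9.2% of 17453 genes were called higher.

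Jun and Junb encode the partners of Fos in AP-1, and Atf3 is a related factor known for its induction by stress and axon injury. Jun had 105 and 108 CPM at E11 and 325 at E12, then 130 to 242 on all plates from E13 to P7 except E18 plate 2 (539), and 843 and 543 in the adult. On adult plate 1 a single well of the oligodendrocyte gate (a rule on markers given with the gates) held 223 of the 632 Jun UMIs, and without that well Jun was at 561 CPM by UMIs, against 842 with it. Junb ranged from 8.92 CPM (E15 plate 2) to 89.7 (adult plate 2), and Atf3 from 0.531 (E13 plate 2, 1 count) to 67.5 (adult plate 2). The log2 slopes per stage step were 0.26 ± 0.07 for Jun, 0.25 ± 0.07 for Junb and 0.54 ± 0.11 for Atf3 (edgeR, adjusted p 0.0117, 0.00804 and 0.00120). Jun overlaps the antisense gene Junos and Junb overlaps Prdx2 on the other strand. The sources used here do not say whether counting used strand, so reads of these pairs may be mixed.

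The Jun and Junb slopes rested on the adult plates. Without both of them the slope of Jun was 0.14 (edgeR, adjusted p 0.278), and without adult plate 1 it was 0.20 (adjusted p 0.0578). Junb missed the threshold without both (0.17, adjusted p 0.105) and also missed the threshold without adult plate 2 and in wells with a Pou4f1 count (0.13, adjusted p 0.111). For Fos, Fosb, Arc, Nr4a1 and Atf3 the call held in each of 24 alternatives, with a highest adjusted p of 0.0250.

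Egr1, Ier2 and Dusp1 were not called over the stages. Egr1, a zinc-finger factor induced with Fos, ranged from 57.4 CPM (E13 plate 2) to 343 (E18 plate 2), with 98.6 and 125 on the E11 plates, 81.2 and 85.6 on the P7 plates, and 210 and 303 on the adult plates. Ier2, a small nuclear protein, ranged from 14.5 to 59.0 CPM. Dusp1, a phosphatase that switches off MAP kinases and so limits the induction of the other genes, ranged from 29.9 to 94.3 CPM, with its E11 plates (91.8 and 94.2) at the level of adult plate 2 (94.3). Their slopes were 0.14 ± 0.07, -0.07 ± 0.06 and -0.05 ± 0.05 per stage step (edgeR, adjusted p 0.148, 0.397 and 0.496). In wells with a Pou4f1 count, Ier2 fell by 0.23 ± 0.06 and Dusp1 fell by 0.17 ± 0.05 per step (edgeR, adjusted p 0.00641 and 0.00861). The Dusp1 gene model overlaps Ergic1 and other genes, so its counts are uncertain in the same way.

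Together, 7 of the 10 genes rose over the stages and 0 fell, beside 20% of all 15676 genes tested called higher and 38.3% called in either direction. The members' median slope was 0.40 per step against 0.000576 for all genes. The members' summed level was 426 and 486 CPM at E11, 585 at E12, 414 and 344 at E13, 359 and 661 at E15, and 598 and 1779 at E18. It was 931 to 1352 CPM from P4 to P7, and 1987 and 2325 in the adult, so that E18 plate 2 lay above every P4 and P7 plate. In wells that passed no gate for progenitor, glial, vascular, microglial or erythroid markers, 7 members were called higher and 0 lower. There 6168 of 15276 genes were called, 3208 of them higher. In wells with a Pou4f1 count 8 members were called, 6 higher and 2 lower (Ier2 and Dusp1), beside 6197 of 14632 genes called and 3346 higher.

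**Figure D2:**
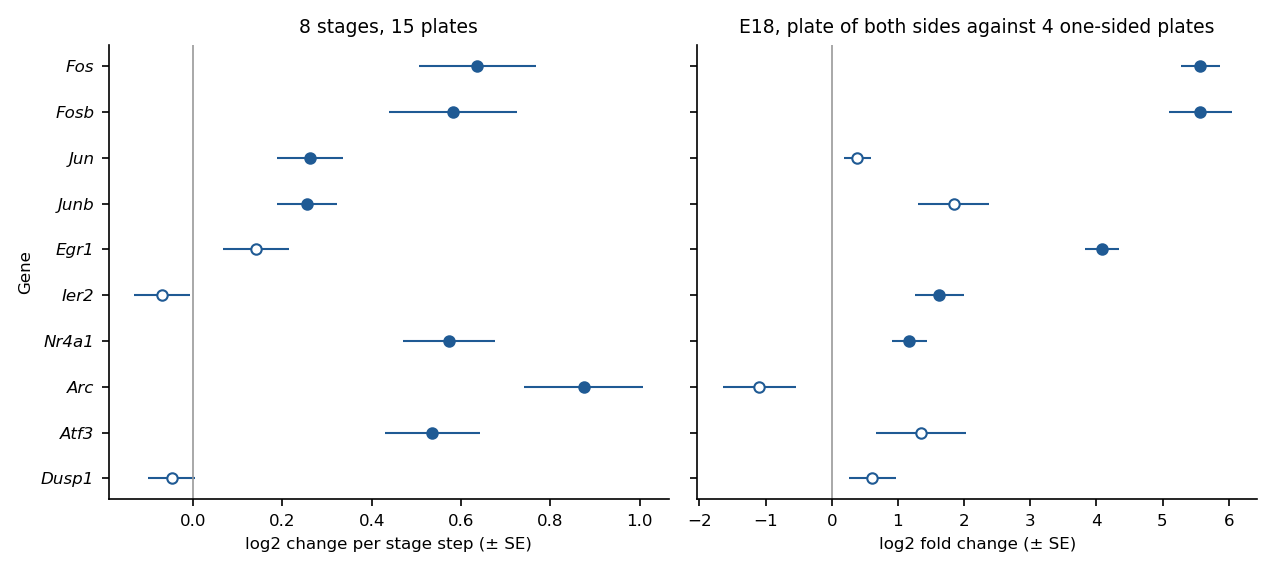
Fitted change of each of the 10 genes with its standard error: left, per stage step over 15 series plates; right, the E18 plate of both sides against the 4 one-sided plates. Filled points passed an adjusted p under 0.05 in edgeR. Fos, Fosb and Nr4a1 are filled in both panels, Jun, Junb, Arc and Atf3 on the left alone, and Egr1 and Ier2 on the right alone, where the calls rest on 1 plate without a replicate.

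Among 40 other immediate early and activity genes, of which 38 were tested, 11 rose over the stages and 6 fell, where 38.3% of all genes tested were called and 20% were higher. Those that changed most per step were Nptx2 (0.73 ± 0.09), Npas4 (0.61 ± 0.13), Fosl2 (0.48 ± 0.08), Klf2 (0.43 ± 0.10), Egr2 (0.41 ± 0.11) and Klf4 (0.40 ± 0.10), all higher (edgeR, adjusted p 2.44e-05 to 0.00763). Npas4, a factor that depends on calcium entry in neurons, stood at 1.63 to 19.0 CPM up to E18, at 61.2 to 136 at P4 and P7, and at 14.5 and 61.3 in the adult. The list's median slope was 0.08. Of 24 upstream regulators, 5 rose and 6 fell beside the same 38.3% of all genes, with a median of 0.02, and the largest change was in Camk4, a calcium-dependent kinase that acts on CREB (0.41 ± 0.12, adjusted p 0.0114).

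Heat-shock genes respond to protein damage. Of 12, 5 rose over the stages, 1 fell and 6 were not called, beside 38.3% of all genes called, with a median slope of -0.0045. The list was led by Hspa1b (0.89 ± 0.16) and its near-identical copy Hspa1a (0.83 ± 0.17). Hspa1a was at 0.386 to 3.72 CPM on the series plates up to E18 other than E12 (23.2), at 16.9 to 39.9 at P4 and P7, and at 160 and 466 in the adult. Their part in the members' levels was not tested. The labels also number the series plates. Fos was at 10.6 to 150 CPM on the plates numbered 6 to 13 and on plate 22 (E12), and at 353 to 638 on those numbered 14 to 21, which are the plates of P4, P7 and adult and E18 plate 2. Whether the numbers follow preparation is not given. Number and stage are not in the same order, as E12 is numbered 22 and the adult plates 15 and 17. The part of plate number in the levels was not tested. The labels give 5 plates to a sequencing run without saying which, so run and stage cannot be told apart.

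Between neighbouring stages few members passed (14 plates in one fit, without E12). These contrasts share plates with one another. The members called numbered 0 from E11 to E13, 0 from E13 to E15 and 0 from E15 to E18, where 1.45%, 0.0917% and 0.195% of 17453 genes were called (in edgeR 3098, 2183 and 3009 genes had an unadjusted p under 0.05). From E18 to P4, 2 of 10 rose, where 19.6% of genes were called and 9.2% were higher: Nr4a1 by 2.14 ± 0.67 and Arc by 3.67 ± 1.01 on the log2 scale (edgeR, adjusted p 0.0446 and 0.0284). Neither passed without E18 plate 1, P4 plate 1 or P4 plate 2, and without E18 plate 2 the Nr4a1 value was 4.25. Nr4a1 passed in 10 of 21 alternatives and Arc in 18. Members not called in the main comparison passed in some alternatives. Without E18 plate 1 Jun fell by 1.14 ± 0.27, and in wells with a Pou4f1 count Egr1 fell by 1.26 ± 0.40 (edgeR, adjusted p 0.0244 and 0.0412). Without the low-count filter Egr1 fell by 0.94 ± 0.30 and Fos rose by 0.90 ± 0.30 (edgeR, adjusted p 0.0187 and 0.0291), and without E18 plate 2 Fos and Fosb rose (edgeR, adjusted p 0.0499 and 0.00670). Fos did not pass (0.80 ± 0.87, adjusted p 0.528), with 77.5 and 409 CPM at E18 spanning the P4 plates.

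From P4 to P7, 0 members passed and 1 gene of 17453 did (0.00573%), and in edgeR 475 genes had an unadjusted p under 0.05. From P7 to adult Jun was the 1 member that rose, by 1.71 ± 0.40 (edgeR, adjusted p 0.0416), where 3.58% of genes were called and 1.76% were higher. Jun passed in 8 of 22 alternatives. It missed the threshold without adult plate 1 (1.33, adjusted p 0.277) and in wells with a Pou4f1 count (1.08, adjusted p 0.107). It also missed it in wells of no non-neuronal gate (1.37, adjusted p 0.0641). In the wells with a Pou4f1 count 1 member other than Jun was called higher, where 602 of 16353 genes were called and 220 were higher. Oligodendrocyte markers summed to 9861 and 2671 CPM on the adult plates and to 152 and 130.4 at P7. From P7 to adult 4 of 12 heat-shock genes rose as well, Hspa1b by 3.34 ± 0.33, Hspa1a by 3.09 ± 0.45, Dnajb1 by 1.77 ± 0.19 and Hsph1 by 1.26 ± 0.24 (edgeR, adjusted p 0.00166 to 0.0215).

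In the E18 set, the sides were compared on 2 left and 2 right plates. Fos was at 4.39 and 4.33 CPM on the left plates and 1.63 and 5.19 on the right, from 8 to 26 counts a plate. Jun was at 62.9 and 83.3 CPM on the left and 60.1 and 60.3 on the right, and Arc at 7.94 and 7.03 against 6.52 and 4.32. None of the 9 members tested was called between the sides (0 of 15489 genes called, 0%; 182 had an unadjusted p under 0.05 in edgeR, and DESeq2 called 1 gene). Fosb, with 1 to 6 counts a plate, did not pass the filter. The difference of right against left was -0.43 ± 0.71 for Fos and 0.60 ± 0.49 for Ier2. Haemoglobin and other erythroid markers summed to 19048 and 17220 CPM on the left plates and to 3410 and 266 on the right, and their part was not tested.

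The plate of both sides was set beside the 4 one-sided plates of the same strain and stage. Fos was at 178 CPM there and at 1.63 to 5.19 on the one-sided plates. Egr1 was at 184 CPM against 6.92 to 15.0, and Fosb at 36.2 against 0.362 to 1.73. Nr4a1 stood at 28.9 CPM against 11.9 to 14.1, and Ier2 at 19.9 against 4.33 to 8.36. Arc went the other way in level, at 3.04 CPM against 4.32 to 7.94. This comparison was chosen after these values were seen, and its single plate is assumed to vary like the 4 others. Its calls therefore describe this 1 plate, are no independent support, and have no replicate.

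In that comparison 5 of the 10 members were higher and 0 lower, where 2.16% of 18489 genes were called higher and 4.6% in either direction. Fos differed by 5.57 ± 0.29 on the log2 scale, Fosb by 5.57 ± 0.48 and Egr1 by 4.09 ± 0.25, with errors that rest on the spread of the one-sided plates. Ier2 differed by 1.63 ± 0.37 and Nr4a1 by 1.17 ± 0.27, and both calls were lost without left plate 1. The Nr4a1 call was also lost without right plate 1 or right plate 2. Arc was not called (-1.09 ± 0.55). Among 37 other immediate early and activity genes tested, 6 were higher and 3 lower. Cyr61 (4.77 ± 0.41), Egr2 (4.73 ± 0.82), Klf4 (2.92 ± 0.53) and Btg2 (1.47 ± 0.21) were higher, and Jund (-1.59 ± 0.20) and Gadd45g (-1.43 ± 0.25) lower. Of 24 upstream regulators and of 12 heat-shock genes, 0 were called in edgeR.

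Wells were sorted into gates by detected markers, a well entering a gate with at least 3 genes of 1 list and fewer of every other. A gate is a rule on detected genes, not a cell type. On the plate of both sides most Fos counts lay outside the habenula neuron gate, which held 67.3% of its kept wells and 4.37% of its Fos UMIs. Fos was at 10.0 CPM in the 224 wells of the neuron gate, at 596 in the 55 of the progenitor gate, at 1131 in the 23 of the astrocyte gate and at 700.5 in the 30 ungated wells. Egr1 was at 24.2, 760.0, 670.3 and 715 CPM in the same order, and Nr4a1 at 8.44, 109, 87.5 and 90.4.

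The progenitor and astrocyte gates together held 78 wells on the plate of both sides and 39 on the 4 one-sided plates. By recovered UMIs, Fos in these wells was at 771 CPM (829 UMIs; 74.4% of wells with at least 1 UMI) on the plate of both sides and at 28.2 CPM (22 UMIs; 15.4% of wells) on the one-sided plates, with median depths of 13992 and 17634 UMIs. In the neuron gate Fos was at 10.1 CPM (51 UMIs; 14.7% of wells; median depth 22728) against 2.18 (33 UMIs in 631 wells; 3.33% of wells; median depth 20896), and Jun was at 36.5 against 58.3. Progenitor markers summed to 1618 CPM on the plate of both sides and to 408 to 672 on the one-sided plates. In wells with a Pou4f1 count only, the fitted differences were 4.47 ± 0.52 for Fos and 2.33 ± 0.33 for Egr1. In those wells of the plate of both sides Fos was at 46.8 and Egr1 at 50.6 CPM. Both lay above their 10.1 and 24.2 CPM in its neuron gate, so a Pou4f1 count and the neuron gate pick different wells. Fosb lost its call (3.86 ± 0.85), and Ier2 and Nr4a1 took the opposite sign without a call (-0.19 and -0.66).

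**Figure D3:**
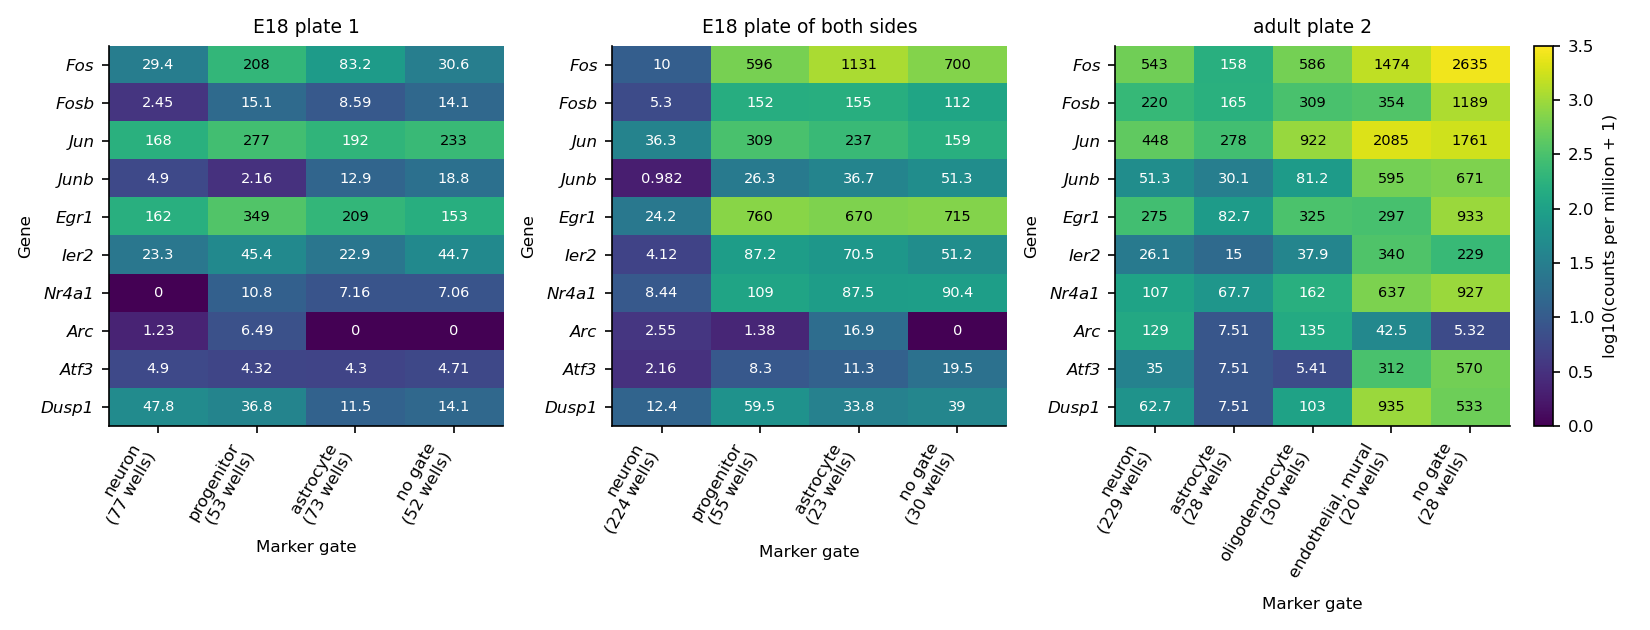
Level of each gene, in CPM, in the wells of each marker gate with at least 20 wells, on E18 plate 1 of the series, the E18 plate of both sides and adult plate 2; colour is log10(CPM + 1). On the plate of both sides Fos is at 596 and 1131 CPM in the progenitor and astrocyte gates and near 10 in the neuron gate, and on adult plate 2 Arc is highest in the neuron and oligodendrocyte gates.

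In the series, E18 plate 1 was the one embryonic plate with at least 20 wells in each of the neuron, progenitor and astrocyte gates. Fos was at 29.4 CPM in its neuron gate (77 wells), 83.2 in the astrocyte gate (73 wells) and 208 in the progenitor gate (53 wells). On E18 plate 2, where 104 of 110 kept wells were in the neuron gate, Fos was at 350 CPM in that gate. That was above each of the gates of plate 1. Among wells in the neuron gate, Fos ran from 6.85 CPM (E13 plate 2) to 142 (E15 plate 2) before E18 and from 282 (P4 plate 2) to 543 (adult plate 2) from P4 onward.

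On adult plate 2 levels differed by gate. The neuron gate held 67.0% of the kept wells and 87.6% of all their UMIs. Egr1 was at 275 CPM in that gate and at 933 in the wells of no gate. In the same 28 wells of no gate Fos was at 2635 CPM, Nr4a1 at 927, Junb at 671 and Atf3 at 570.4, against 543, 107, 51.3 and 35.0 in the 229 wells of the neuron gate. Arc was at 5.32 CPM in the ungated wells, from 1 count, at 129 in the neuron gate, and at 135 in the oligodendrocyte gate (30 wells, 25 counts). Genes leading the ungated wells included Acta2, Myl9 and Myh11, of smooth muscle, and Foxj1, of ciliated cells (chosen after their values were seen), and these wells carried medians of 4 neuron, 3 progenitor, 3 oligodendrocyte, 3 astrocyte and 1.5 endothelial and mural markers. The endothelial and mural list had the highest summed level of the 7 marker lists in these wells, 2755 CPM, led by Rgs5 (1412 CPM). The astrocyte list (2526 CPM) and the oligodendrocyte list (2419 CPM, led by Olig1 at 1503) were close behind. The endothelial and mural gate (20 wells) had Jun at 2085, Dusp1 at 935 and Ier2 at 339.9 CPM. On adult plate 1 the oligodendrocyte gate (20 wells) had Jun at 2428 CPM and the neuron gate (30 wells) at 518, and without the 1 well of 223 Jun UMIs the oligodendrocyte gate was at 888 CPM.

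Spread among wells was measured after each well was thinned to 2000 UMIs. Fos was detected in 2.26% to 23.3% of wells on the plates from E11 to E15 (18 of 305 on E11 plate 1), in 8.05% and 40.2% at E18, and in 41.0% to 56.0% on the P4 plates, the P7 plates and adult plate 2. On adult plate 1, with 40 wells deep enough, it was detected in 17.5%. On the one-sided plates at most 1 thinned well held a Fos UMI. Without thinning 2.51% (7 of 279 wells, right plate 1) to 5.56% (3 of 54, left plate 2) did, against 33.6% on the plate of both sides. In the series the unthinned shares were 5.85% (E15 plate 1) to 55.6% (E15 plate 2) up to E15, 19.1% and 77.3% at E18, 78.9% to 89.5% from P4 onward other than adult plate 1, and 41.1% there. After thinning to 2000 UMIs the variance-to-mean ratio of Fos had a median of 3.001 over the 13 plates with at least 10 UMIs and reached 5.46 on adult plate 2. Thinned to 1000 UMIs, adult plate 2 gave 3.21, so the ratio depends on the depth chosen. Over all genes with at least 10 UMIs, the ratio at 2000 UMIs had a median of 1.04 to 1.40 on every plate, and a ratio of 1 is that of Poisson counts. These genes were not matched to Fos by mean level. On adult plate 2 the 90th percentile over genes was 1.59, and 5.57% of genes had a ratio above 2.

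The median ratio was 2.63 for Atf3 (3 plates), 2.01 for Egr1 (16 plates), 1.57 for Nr4a1 (7 plates), 1.48 for Fosb (11 plates), 1.45 for Jun (19 plates) and 1.17 for Dusp1 (16 plates). These medians cover different plates and are not ranked. On the same plate Egr1 lay above Fos on E15 plate 2 (2.05 against 1.34), P4 plate 2 (3.84 against 2.53), P7 plate 1 (3.96 against 3.75) and P7 plate 2 (2.47 against 1.97), and below it on the other 9 plates where both had a ratio. Jun had its highest ratio, 8.58, on adult plate 1, where a single well of 40 held 23 of its 70 UMIs. Thinned to 1000 UMIs, that plate gave 2.25. At 2000 UMIs 23.6% of all genes on that plate had a ratio above 2. On P4 plate 1 Egr1 had a ratio of 3.25 and Fosb 1.48, at 18.0% and 29.5% of wells with a UMI. On adult plate 2 a single well held up to 24 of its 2000 UMIs as Fos, 20 as Jun and 4 as Arc.

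Wells with many members at once were most frequent on adult plate 2, where 74 of 327 wells (22.6%) had at least 5 of the 10 genes detected. The share was 2.86% to 7.50% on E18 plate 2, the P4 and P7 plates and adult plate 1, and at most 0.984% on the plates from E11 to E15 and E18 plate 1. On the 4 one-sided plates it was 0 and 76.1% to 84.0% of wells had none of the 10 genes. The plate of both sides had 8 of 328 such wells (2.44%).

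**Figure D4:**
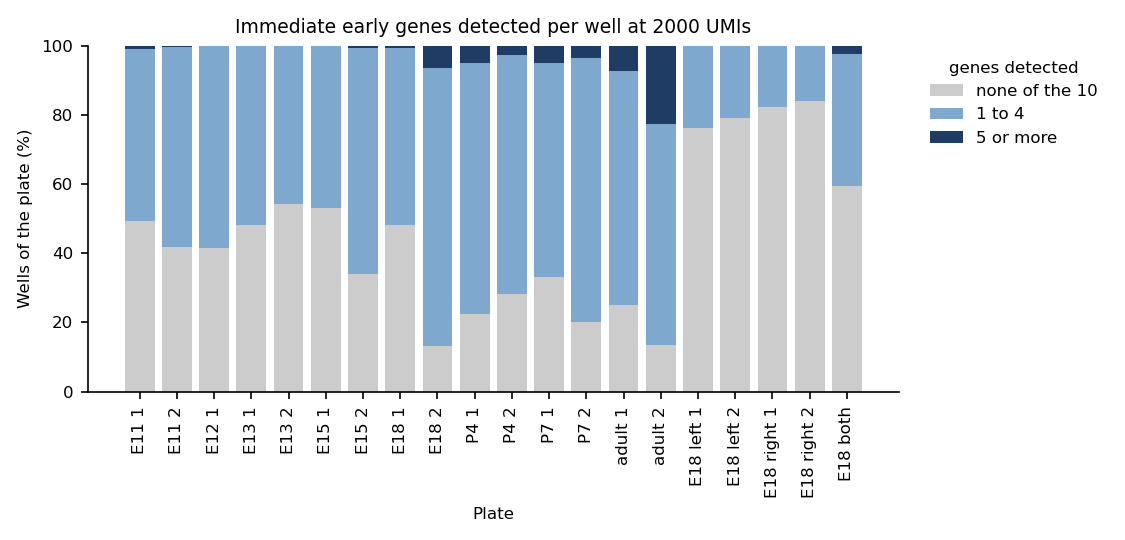
Share of wells on each plate with none, 1 to 4, or 5 or more of the 10 genes detected after thinning to 2000 UMIs, series plates in stage order and then the E18 set. Adult plate 2 has the tallest dark segment, 22.6%, and the 4 one-sided E18 plates have none.

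Pairs of members were correlated over the thinned wells of a plate, as a description: wells of a plate share a library, and both depth and cell mixture enter. Fos correlated with Egr1 at 0.11 to 0.68 over 10 plates (highest on the plate of both sides), with Fosb at 0.10 to 0.58 over 9 and with Nr4a1 at 0.19 to 0.59 over 5 (highest on adult plate 2). Arc could be paired on 2 plates. On P7 plate 2 its r was -0.0058 with Fos, 0.021 with Egr1 and 0.039 with Nr4a1, over 282 wells. On adult plate 2 it was 0.0077 with Fos, -0.035 with Egr1 and -0.15 with Nr4a1, over 327 wells. Other pairs were as weak on some plates, with a lowest r of -0.073 for Egr1 and Ier2 and of 0.0042 for Fos and Jun. On adult plate 2, 49 wells held an Arc UMI, of which 32 also held Fos, against 183 of all 327 wells with Fos. Only 5 of the 49 held Nr4a1, against 88 of all 327. These counts are sparse, and such weak correlations are given as values only.

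Unspliced counts are commonly taken to come from intronic reads of transcripts not yet processed. How they were assigned here is not given in the sources used. Summed over all 20 plates, the unspliced share was 21.5% for Nr4a1 (766 of 3565 counts), 7.99% for Atf3, 3.67% for Junb, 1.27% for Fosb and 0.182% for Fos. It was 0.0220% for Egr1 and 0.0468% for Dusp1, and 0 for Jun, Ier2 and Arc. The coding transcripts of Jun, Junb and Ier2 have a single exon in GENCODE release M21, so the unspliced counts of Junb cannot come from an intron of its coding transcript. Nr4a1 spans 20527 bases (chr15:101254269-101274795, plus strand) with 3 to 8 exons in its coding transcripts, and Fos 3384 bases with 4 exons.

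Among the series plates, Nr4a1 was mostly unspliced on the E11 plates alone. Its unspliced share was 62.3% (33 of 53 counts) and 76.8% (43 of 56) there and 40.0% at E12. It was 50.0% and 21.4% on the E13 plates, 45.5% and 40.7% on the E15 plates, and 23.1% and 26.0% on the E18 plates, from 11 to 50 counts a plate. It was 17.2% to 26.3% on the P4 and P7 plates. In the adult it was 20.5% (9 of 44) and 12.4% (98 of 793). In CPM, spliced Nr4a1 went from 3.86 and 2.66 at E11 to 46.2 and 138 in the adult, and unspliced Nr4a1 from 6.37 and 8.78 to 11.9 and 19.5. Both levels were thus higher in the adult than at E11. The ratio of unspliced to spliced Nr4a1, relative to that of all genes, fell by 0.45 ± 0.06 on the log2 scale per stage step (edgeR, adjusted p 6.72e-05), where 14% of 7490 genes were called and 7.13% were lower. It ranked 10 among them and was called in all 19 alternatives. Over all genes the unspliced share of a plate was 17.6% to 26.3% in the series, with 22.3% and 20.8% at E11 and 26.3% and 25.2% in the adult. The other 9 members did not pass the low-count filter. Without it 6 of them were tested and 0 called (edgeR, adjusted p 0.0983 for Fos, 0.102 for Egr1, and 0.416 to 0.945 for Junb, Atf3, Dusp1 and Fosb), where Fos and Egr1 had an unadjusted p under 0.05. In the E18 set the Nr4a1 share was 21.8% to 57.7% on the one-sided plates and 11.6% (22 of 190) on the plate of both sides.

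**Figure D5:**
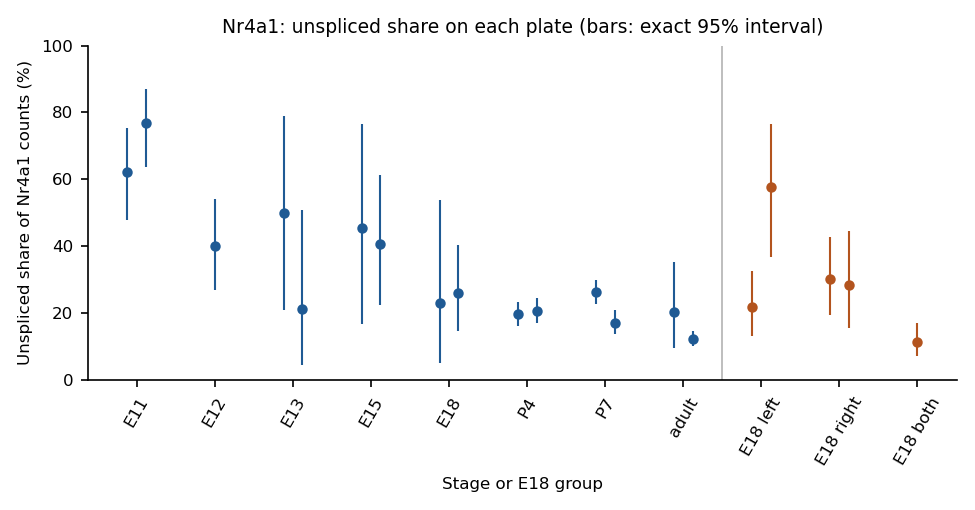
Unspliced share of Nr4a1 counts on each plate (percent, exact 95% binomial interval, counting error only), series in blue and E18 set in orange. The E11 plates lie at 62.3% and 76.8% and the adult plates at 20.5% and 12.4%, while intervals from E13 to E18 are wide because few counts were seen.

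The 5 genes whose log2(CPM + 1) followed the mean standardised profile of the members most closely over the 15 series plates were Gm30373 (r 0.92), Mapk4 (0.92), Gpr12 (0.90), Pdxk (0.88) and Syngr1 (0.88), given as a description. Gm30373 and Gpr12 had at most 8.55 and 6.51 CPM. Among the members themselves, Fos and Fosb had an r of 0.95 over these plates and Nr4a1 and Arc 0.89, while Ier2 had -0.37 with Fos and Dusp1 0.12.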

How the data were processed

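Per the labels' protocols, cells were lysed in 384-well plates and sequenced with Cel-seq2. Per the submitters' processing notes, Trim Galore, STAR 2.5.3a and the mm10 genome were used, and the sources used here name no counting program, annotation or use of strand. The authors deposited expected counts per gene and well (UMI numbers corrected for collisions among 4096 UMIs) as total, spliced and unspliced tables. Inverting the correction gave whole numbers, within 1e-06, for 100% of values. A test of whole counts had been planned, so plate sums were rounded, with the recovered UMIs as another setting. The 92 spike-in rows were left out.

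Kept wells were summed per plate, and plates were the replicates. Tests used edgeR 4.0.16 under R 4.3.3 (filterByExpr, TMM, quasi-likelihood) on all genes, with Benjamini-Hochberg adjustment at 0.05 in each of 10 comparisons. For the unspliced test, spliced and unspliced sums of a plate entered as a block with a layer by stage term. The scripts were tested on simulated data. Wells were thinned with Python 3.11.15 and numpy 2.4.6, and those below the target depth were left out. Alternatives were DESeq2 1.42.0, RLE scaling, no filter, recovered UMIs, wells of at least 2000 counts, wells with a Pou4f1 count, a replicate block, and each plate left out.

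All members are named, and of the other lists up to 6 called genes of largest fold per comparison. The members and lists were chosen with earlier results of these data known. The plate of both sides was compared, and the adult plates and the non-neuronal gates left out, after the values were seen. Gene models came from GENCODE M21, promoters from RefSeq (GRCm38.p6). Intervals are at 95%.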

Additional observations from a re-analysis of the deposited data

Results flagged for a closer look

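Wells that did not pass the filters enter no comparison above. Their Fos UMIs were above 3, the limit that a count of 0 allows, on 7 plates: 12 on E18 plate 2, 8 and 17 on the P4 plates, 12 on each P7 plate, and 19 and 23 on the adult plates. The kept wells of the same plates held 304 to 3202 Fos UMIs, and the median depth of the wells not kept was 14 to 561 UMIs. No group had the 4 or more plates needed to test for a plate far from the others.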

How the results depend on the processing

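Counts of members called moved with the low-count filter and the wells used. Without the filter 2 members passed from E11 to E13, 3 from E13 to E15, 5 from E15 to E18, 4 from E18 to P4 and 3 from P7 to adult. The genes called then numbered 1715, 1249, 1461, 4820 (E18 to P4), 136 (P4 to P7), 1766 (P7 to adult) and 37 (left against right). They were called among 37590 genes tested in the steps and 34917 between the sides. DESeq2 called 951, 445 and 671 genes in the first 3 steps, 22 from P4 to P7, 1411 from P7 to adult (2 members) and 1 between the sides. The main numbers were 253, 16, 34, 3421 (E18 to P4), 1 (P4 to P7), 625 (P7 to adult) and 0 (left against right). Those fits tested 17453 genes in the steps and 15489 between the sides. In wells of at least 2000 counts 1 member passed from E18 to P4. In wells of no non-neuronal gate 0 passed from P7 to adult. In wells with a Pou4f1 count the plate of both sides differed in 187 genes and 2 members, and Nr4a1 (-0.66) and Ier2 (-0.19) reversed sign without a call. With the plate total as library size 697 genes were called for the unspliced share, against 1046. The cause of these shifts was not tested.

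Replicate numbers did not pair the series plates: over 21 pairs of stages the deviations of same-numbered plates correlated at -0.38 to 0.27, with 3 above 0.1. The 1 pair of sides gave 0.24. With the replicate block 4 genes were called from E13 to E15, 16 from E15 to E18 and 6 between the sides, and 0 members from P7 to adult. The stage comparison kept 7 members called.

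Leaving out 1 plate at a time gave 6 to 7 members and 4974 to 6648 genes for the stages. The steps gave 28 to 1078 genes (E11 to E13), 1 to 350 (E13 to E15), 4 to 2100 (E15 to E18), 574 to 5695 with 0 to 4 members (E18 to P4), 0 to 1 (P4 to P7) and 27 to 1572 with 0 to 2 members (P7 to adult). Members stayed at 0 in the other steps. The sides gave 18 to 39 genes and 0 members, the plate of both sides 640 to 1403 genes and 3 to 6 members, and the unspliced share 665 to 1182 genes and 1 member. A stage or side left with 1 plate is assumed to vary like the others. Nr4a1 had 11 to 56 counts a series plate before P4, which limits the precision of its values there.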
